A study of Mus musculus with 10 samples.

Results

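Transcripts of the cytosolic ribosomal proteins were measured at embryonic day 14.5 in the livers of 5 Zfp36l2 knockout (KO) and 5 wild type (WT) mouse fetuses, all on a mixed b6 and 129 background. Each liver was run on 1 expression array, and each is a separate animal. Members were the probe sets whose array annotation gives exactly 1 symbol of the Rpl or Rps series with a number, or Rplp0, Rplp1, Rplp2 or Rpsa, after leaving out the Rps6k kinases, paralogs ending in l or l1, and pseudogenes. This gave 96 probe sets of 44 genes, out of 34945 probe sets with 1 symbol. There were 22 genes of the large subunit and 21 of the small subunit. The remaining symbol, Rps19bp1, fits the rule by its letters but encodes a protein that binds Rps19 and is no part of the ribosome. Rplp1 and Rpl5 had no probe set with a single symbol.

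Ribosomal proteins assemble with ribosomal RNA in the nucleolus into a small subunit, which reads the mRNA, and a large subunit, which joins amino acids. Their mRNAs are among the most abundant in dividing cells, are long-lived, and begin with a pyrimidine tract (the 5' terminal oligopyrimidine, or TOP, motif) that lets growth signals set their translation together. Red cell precursors, the main cells of the fetal liver at this age, need many ribosomes, and loss of 1 copy of several of these genes causes Diamond-Blackfan anaemia in humans. Zfp36l2 is a relative of tristetraprolin that attaches to AU-rich stretches of mRNAs and speeds their breakdown.

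RefSeq (GRCm38.p6) promoters, each 300 bases around an annotated start, were matched by symbol for 39 of the 44 genes, with 45 starts. Rpl7, Rpl8, Rps14, Rps20 and Rps29 were not matched. The 30 bases before the start are shown for the 2 brightest members with a promoter, the most stepped member, and others with a tract or motif, with capitals marking runs of 6 or more C or T and the letters CCGGAAG, the core of sites for ETS factors.
Rpl7a, chr2:26910777-26910806, plus strand: tacttaTCCCCCacaaTTCCCTCTTCTTTC
Rpl38, chr11:114668550-114668579, plus strand: ggttaaccgtCCGGAAGcggaagcctcgtt
Rps9, chr7:3704011-3704040, plus strand: taagacctcggtccaaccgccttgTCTCTC
Rpl14, chr9:120571487-120571516, plus strand: cacatgcgcacggcagggcgggCCCTCTCT
Rpl35, chr2:39005132-39005161, minus strand: agtagttgaggaagtcggccccgCCCTTTC
Rps10, chr17:27635245-27635274, minus strand: cCCGGAAGagacgctgcgccgcgcacgccc
In 4 of these the pyrimidine run reaches the annotated start, but some were chosen for their tract, so this count is no share of the members. In the 30 bases before the start, 35.6% of all member promoters held a run of at least 6 C or T, against 31.7% of all promoters. Over the 45 promoters of the members, CCGGAAG on either strand was present in 42.2%, against 8.86% of all 32851 promoters. The shorter CGGAAG, which lies within it, was present in 64.4%, against 16.9%, and GGGCGG, the core of Sp1 sites, in 55.6%, against 35.7%. From 20 bases before to 20 after the start, 18 of the 45 member promoters held a run of at least 8 C or T on the sense strand, against 16.05% of all promoters, and a run of at least 8 A or G was in 4.44%, against 17.7%. In all 30 searches were made, over 6 letter motifs, of which the 2 longest are not shown, and over runs of 3 lengths in 4 windows. For runs of C or T the members' share was above that of all promoters in each search, from 11.1% against 6.43% for at least 10 bases in the 30 before the start up to 84.4% against 60.6% for at least 6 bases in the widest window. TATAAA was present in 11.1% of member promoters, against 13.6% of all. A match is a description of these letters and not of a bound site.

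Zfp36l2 checked the labels: its brightest probe set read 108, 82.3, 109, 103 and 108 in KO livers, against 396, 397, 596, 391 and 389 in WT livers, with no overlap (log2 KO minus WT -2.08 ± 0.13, SE; limma adjusted p = 1.97e-05; two-sided exact permutation p = 0.00794, the smallest that 5 against 5 allows). Hepatocyte and erythroid markers were bright, with Afp at 16287 ± 366 in KO and 16358 ± 247 in WT livers (SD, n = 5 each). Over 14 measured platelet and megakaryocyte markers the summed intensity ran from 2050 to 3259 in KO livers and from 4698 to 6731 in WT livers, and over 14 monocyte and macrophage markers from 8785 to 11134 in KO and from 4431 to 10525 in WT livers. Of the 14 platelet and megakaryocyte markers 3 passed the limma test, where 0.0706% of all tested genes did. At an unadjusted p under 0.05, 13 were lower in KO livers, where 5.02% of all tested genes were. Their median log2 difference was -1.11. Of 13 tested monocyte and macrophage markers 0 passed. At an unadjusted p under 0.05, 8 were higher in KO livers, where 5.31% of all tested genes were. Of 16 tested erythroid markers 0 passed the test, where 0.0706% of all 12741 tested genes did, but 15 were negative and 11 were lower in KO livers at an unadjusted p under 0.05, where 5.02% of all tested genes were. Their median log2 difference was -0.21, or -0.14 with arrays scaled to a common median, and their summed intensity ran from 39824 to 45249 in KO livers and from 42087 to 52913 in WT livers. Of 11 neutrophil lineage markers 0 passed the test, 9 were positive and 7 were higher in KO livers at an unadjusted p under 0.05, where 5.31% of all tested genes were. Their median was 0.93, and their summed intensity ran from 14216 to 26904 in KO livers and from 6394 to 28085 in WT livers. In bulk tissue fewer cells of a type and less RNA per cell cannot be told apart. The part of these cell types in the values below was not tested.

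Ribosomal protein mRNAs were among the brightest on the arrays. Of the 100 brightest probe sets, 24 were members and another 32 carried a ribosomal protein symbol beside other symbols. In the brightest probe set of each gene, 36 genes reached a mean of at least 1000 intensity units, a line drawn after values were seen, with means from 1332 to 16092 and a median of 9162. For comparison, 7.36% of all 12741 tested genes reached that level. Levels of different probe sets are not a measure of relative mRNA amount, since each probe set binds with its own strength.

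Rps29, a small zinc-binding protein of the small subunit, was the brightest. It read 15733, 15486, 16538, 15733 and 16088 in KO livers, against 16088, 16538, 16538, 16088 and 16088 in WT livers. The genotypes overlapped, and the log2 difference was -0.03 ± 0.04 (SE). Repeated values here come from quantile normalization, which gives a probe set of the same rank the same value and leaves little room for a difference at the top of the range. Rpl38 and Rpl7a, both of the large subunit, came next, at 12700 ± 259 and 12698 ± 146 in KO livers, against 12800 ± 487 and 12477 ± 292 in WT livers (SD, n = 5 each).

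No member passed the test between genotypes. Limma (Benjamini-Hochberg over all 27022 tested probe sets) called 0 of 89 tested members, with a lowest adjusted p of 0.384, where 0.0407% of all tested probe sets were called. The other 7 member probe sets had means at or under 9.44 units and fell below the filter on low values, among them the single Rps16 probe set. At an unadjusted p under 0.05, 3 members were lower in KO livers, where the background is 4.17% of all tested probe sets, and 1 was higher, where it is 4.25%. These 4 were probe sets of Rpl37a, Rpl35, Rps9 and Rpl13a.

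Over the brightest probe sets of the 36 bright genes, the quantile normalized log2 differences lay between -0.09 and 0.04, with standard errors from 0.04 to 0.09. For 26 of the 36, the 95% interval of the KO over WT ratio lay within 10% of equality in either direction. The widest limits were 12.8% lower, for Rplp0, and 17.3% higher, for Rpl11. These intervals hold for quantile normalized values, in which the top of the range is compressed. With median scaling 14 of the 36 intervals lay within 10% of equality and the limits reached 13.1% lower, for Rplp0, and 25.5% higher, for Rpl11, and with deposited values 0 of the 36 did. In the quantile normalized data the median residual SD between livers of 1 genotype was 0.0387 on the log2 scale for the 36 genes. It was 0.0996 for the 1674 tested probe sets of at least 1000 units. The 36 had a median level of 9162, and the 1674 were not matched to them in level.

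**Figure D1:**
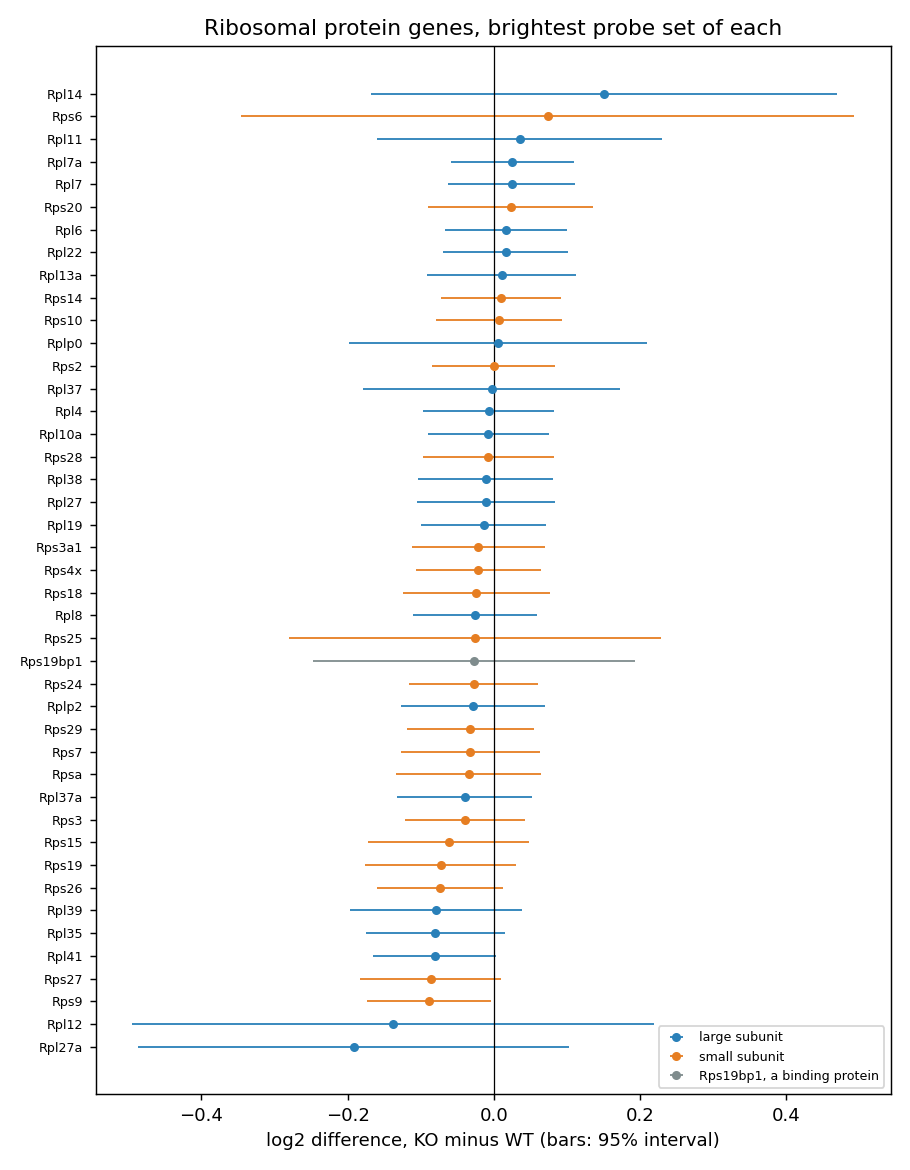
Log2 difference, KO minus WT, of the brightest probe set of each of 43 tested genes, with 95% intervals from limma. Differences of the 36 bright genes lie between -0.09 and 0.04, and the wide intervals belong mostly to dim probe sets such as those of Rps6, Rpl12 and Rpl27a.

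**Figure D2:**
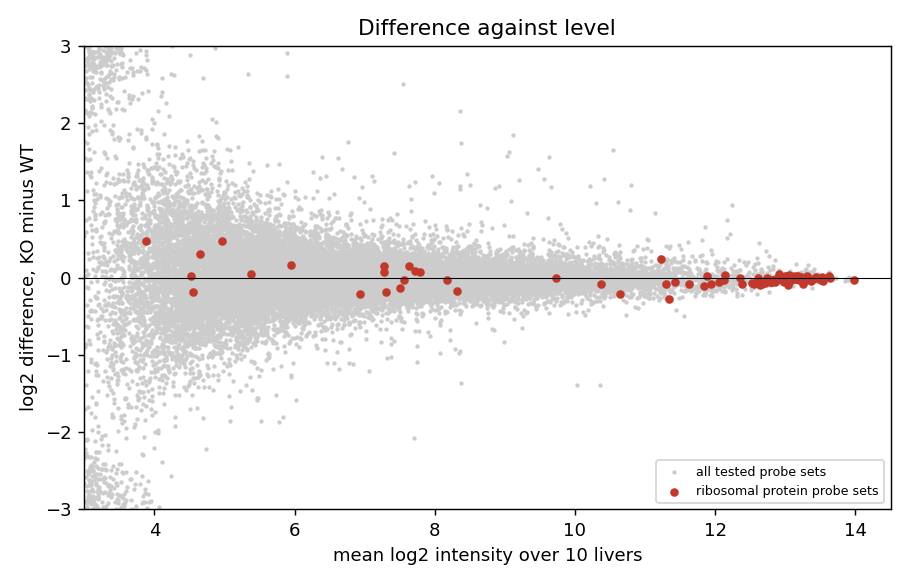
Log2 difference, KO minus WT, against mean log2 intensity for tested probe sets (grey, those with a mean log2 of at least 3) and member probe sets (red). Members crowd at the bright end close to 0, and the dim members lie further from it on both sides.

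Most differences were slightly negative, but the direction of the family depended on how arrays were scaled. With quantile normalization 31 of 43 tested genes had a negative log2 difference, and the median was -0.021, against 0.0041 over all genes tested, of which 49.2% were negative. With arrays scaled to a common median in place of that, 14 of 43 were negative and the median was 0.012, against 0.071 over all genes. With the deposited values as they stand, 40 of 43 were negative and the median was -0.072, against -0.013. The members' median thus lay below that of all genes by 0.025, 0.059 and 0.059 under the 3 scalings. Livers of 1 genotype also differed in the members' median, here taken by itself and not against that of all genes. With quantile normalization the 43 genes' median deviation ran from -0.027 to 0.0053 in KO livers and from -0.015 to 0.030 in WT livers. The genotypes overlapped under each of the 3 scalings. The SD of these medians was 0.013 in KO and 0.020 in WT livers with quantile normalization, 0.071 in KO and 0.043 in WT livers with median scaling, and 0.072 in KO and 0.095 in WT livers with deposited values (n = 5 each).

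**Figure D3:**
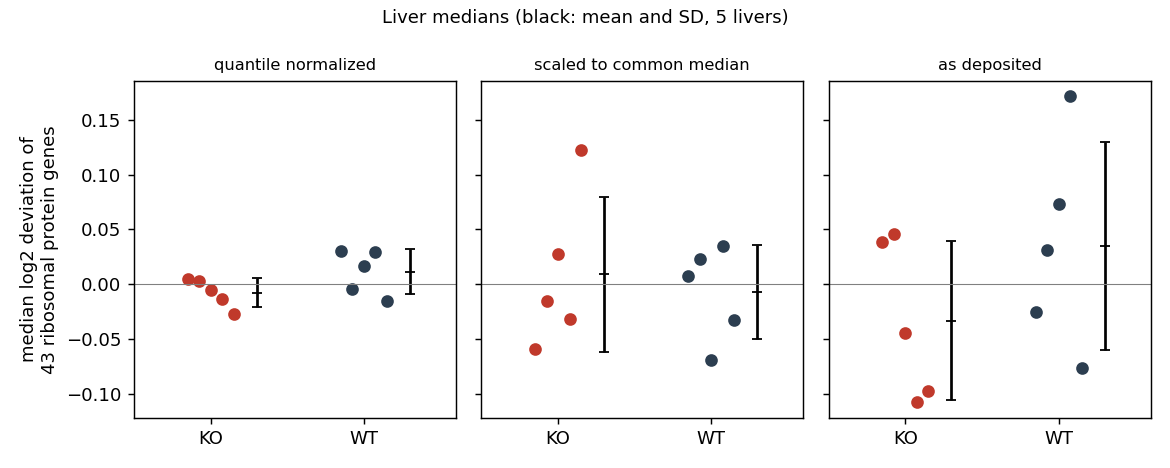
Median log2 deviation of 43 tested member genes, Rps19bp1 among them, from their 10-liver means, per liver, under 3 scalings. KO livers are in red, WT livers in dark blue, and mean and SD of 5 livers in black. The genotypes overlap in each panel, and the mean of KO livers is below that of WT livers with quantile normalized and deposited values but above it with median scaling.

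By subunit, in the quantile normalized data the median log2 difference was -0.0090 over 22 large subunit genes, of which 14 were negative, and -0.027 over 20 tested small subunit genes, of which 16 were negative. The difference between the subunits was not tested. Of the stalk proteins, which recruit translation factors to the large subunit, Rplp0 averaged 11906 ± 1333 in KO and 11875 ± 1499 in WT livers, and Rplp2 averaged 9681 ± 247 in KO and 9876 ± 468 in WT livers (SD, n = 5 each). Rpsa, a small subunit protein also known as the laminin receptor, averaged 9950 ± 522 in KO and 10179 ± 154 in WT livers (SD, n = 5 each). For these 3, limma adjusted p-values were 0.992, 0.844 and 0.803.

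Among bright small subunit members, taking the brightest probe set of each gene, the most negative differences were those of Rps9 and Rps27. The brightest Rps9 probe set read 5182, 5199, 5182, 5280 and 4941 in KO livers, against 5556, 5427, 5427, 5492 and 5511 in WT livers. Every KO value was below every WT value, by little: the log2 difference was -0.09 ± 0.04 (SE; limma adjusted p = 0.558), and it was -0.01 with median scaling. Rps27 read 3960, 3685, 3918, 3695 and 3815 in KO livers, against 4255, 3871, 4058, 4118 and 3950 in WT livers, which overlapped (-0.09 ± 0.04, limma adjusted p = 0.668). With median scaling its difference was 0.0042. Rps26, singled out after its values were seen, read 6634, 6603, 6516, 6603 and 6173 in KO livers, against 6892, 6832, 6892, 6855 and 6735 in WT livers. Its genotypes did not overlap either, at a log2 difference of -0.07 ± 0.04 (limma adjusted p = 0.693).

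Among bright large subunit members, taken in the same way, the most negative differences were those of Rpl41 and Rpl35. Rpl41, the smallest ribosomal protein, read 6223, 6211, 6439, 6439 and 6415 in KO livers, against 6855, 6756, 6781, 6577 and 6577 in WT livers. The genotypes did not overlap, and the log2 difference was -0.08 ± 0.04 (limma adjusted p = 0.625) and -0.0045 with median scaling. Rpl35 averaged 9505 ± 316 in KO and 10045 ± 342 in WT livers, with overlap (SD, n = 5 each). In all, 4 of 89 tested members, from Rpl41, Rps26 and Rps9, had every KO liver below every WT liver, where 1.2% of all tested probe sets did. A single dim Rps20 probe set, at 37.4 ± 5.58 in KO and 27.0 ± 5.30 in WT livers (SD, n = 5 each), had every KO liver above, where 1.14% did (limma adjusted p = 0.725).

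Among the brightest probe sets of the bright genes, the largest positive differences were those of Rpl11, Rpl7a, Rpl7 and Rps20, at 0.04, 0.03, 0.02 and 0.02. Rpl11, which binds Mdm2 and links failed ribosome assembly to p53, read 4392, 4873, 4915, 3995 and 4635 in KO livers, against 4213, 4132, 4915, 5323 and 3784 in WT livers. The genotypes overlapped, and with median scaling its difference was 0.12. Rps19, the gene most often mutated in Diamond-Blackfan anaemia, read 6869, 5934, 6173, 6285 and 6308 in KO livers, against 6832, 6464, 6603, 6832 and 6439 in WT livers. These overlapped, with a log2 difference of -0.07 ± 0.05 (limma adjusted p = 0.735). Of 20 genes listed for that disease in humans, 11 had a tested member, 0 were called, and the median was -0.032, with 9 of 11 negative in the quantile normalized data and 4 of 11 with median scaling.

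For 7 tested genes the single-symbol probe sets were dim, with means from 161 to 849 units. These were Rpl12, Rpl14, Rpl27a, Rpl37, Rps6, Rps25 and Rps19bp1, and their standard errors ran from 0.08 to 0.19. Rpl27a averaged 150 ± 27.3 in KO and 171 ± 24.5 in WT livers, the most negative difference among the probe sets taken for the genes at -0.19 ± 0.14 (limma adjusted p = 0.737). Rpl14 averaged 211 ± 29.4 in KO and 192 ± 41.0 in WT livers, the most positive at 0.15 ± 0.15 (limma adjusted p = 0.747). Rps6, the substrate of S6 kinases, had 236 ± 63.5 in KO and 220 ± 41.0 in WT livers (limma adjusted p = 0.917; SD, n = 5 each). The values of these genes say little about their mRNA at this brightness.

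Probe sets of 1 gene did not always read alike. Of the 96 member probe sets 26 had means under 1000. The name of a probe set ends in x_at where its probes may also match other genes, and in a_at where it matches several transcripts of 1 gene. Of 29 probe sets ending in plain at, 8 reached 1000, against 25 of 26 ending in a_at and 35 of 38 ending in x_at. Of 3 ending in s_at, 2 did, and these are the brightest probe sets of Rps9 and Rpl22. Whether they read only their own gene was not tested. Among bright probe sets of 1 gene the log2 differences were furthest apart for Rpl22, at -0.28 and 0.02, and for Rpl13a, at 0.24 and -0.0011. The dimmer of the bright Rpl22 probe sets read 2262, 2513, 2020, 3198 and 1944 in KO livers, against 2596, 3166, 2151, 3202 and 3298 in WT livers. The brightest one averaged 9381 ± 131 in KO and 9275 ± 242 in WT livers (SD, n = 5 each). For Rpl13a, a probe set with 2938, 2915, 2390, 2574 and 2277 in KO livers, against 2502, 2165, 2174, 2301 and 1944 in WT livers, had the lowest p of the family (limma adjusted p = 0.384). The brightest Rpl13a probe set averaged 11195 ± 361 in KO and 11117 ± 554 in WT livers (SD, n = 5 each).

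One Rps9 probe set split the livers regardless of genotype. Ending in x_at, it read 3898, 4743, 1110, 4650 and 944 in KO livers, against 4720, 5111, 1106, 4883 and 907 in WT livers. In both genotypes replicates 3 and 5 were the low livers. The highest liver was 5.64 times the lowest, where the median of that ratio over 70 bright member probe sets was 1.12, and 4 of the 70 had a ratio over 1.5. The brightest Rps9 probe set, given above and ending in s_at, showed no such step. Rplp0 also followed the replicate numbers, with 10185, 10763, 12910, 12610 and 13061 in KO livers, against 10087, 10559, 13659, 12610 and 12458 in WT livers. There replicates 1 and 2 were the low livers in both genotypes. Both patterns were singled out after the values were seen. What the shared numbers stand for is not in the labels, and the part of strain background or of a batch was not tested.

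**Figure D4:**
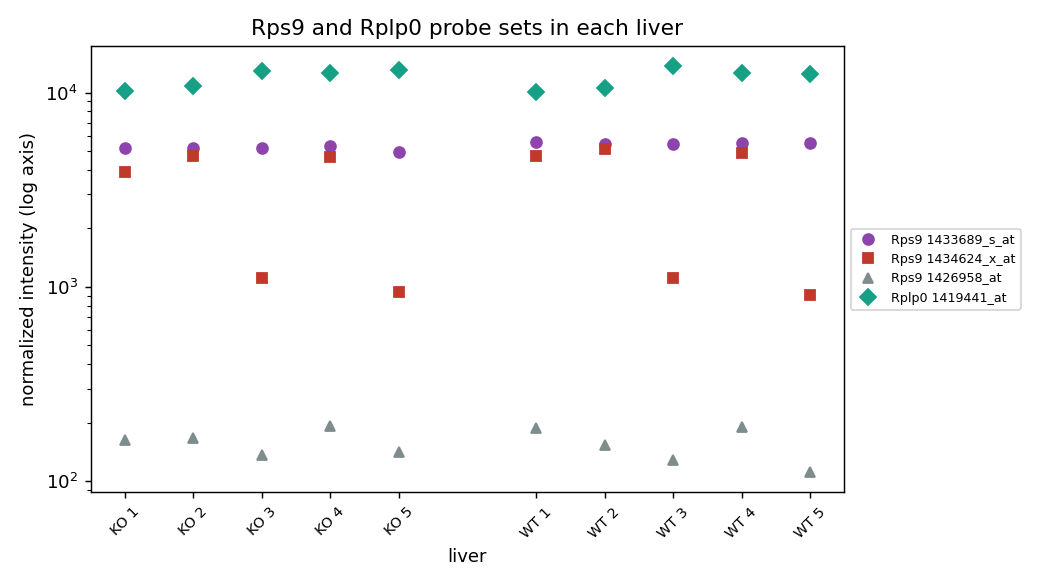
Normalized intensity (log axis) of 3 Rps9 probe sets and of Rplp0 in each liver, KO livers on the left and WT livers on the right. The Rps9 probe set drawn as red squares is low in replicates 3 and 5 of both genotypes, at 907 to 1110 units against 3898 to 5111 in the other livers, while the brightest Rps9 probe set (purple circles) stays between 4941 and 5556.

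Probe sets that carry a ribosomal protein symbol together with other symbols were read as a group, with no gene named. Of 110, 107 were tested and 0 were called (lowest limma adjusted p = 0.0993), where 0.0407% of all tested probe sets were. At an unadjusted p under 0.05, 4 were lower in KO livers, where 4.17% of all tested probe sets were. None was higher, where 4.25% were. Their median log2 difference was -0.026, with 74 of 107 negative in the quantile normalized data, where 49.2% of all tested genes were. Only this scaling is given for the group.

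Related gene lists gave no calls either, where 0.0706% of all tested genes were called. Of 17 tested translation genes whose mRNAs also carry a TOP motif, 0 were called and 2 were lower at an unadjusted p under 0.05, where 5.02% of all tested genes were. Their median was -0.051 with quantile normalization and 0.025 with median scaling. Eef1a1, the factor that delivers aminoacyl-tRNA, averaged 15428 ± 431 in KO and 15407 ± 471 in WT livers, and Tpt1 averaged 12756 ± 423 in KO and 12636 ± 248 in WT livers (SD, n = 5 each). Of 36 ribosome assembly genes 0 were called and 26 were positive, with a median of 0.042, which was 0.11 with median scaling and 0.026 with deposited values. Ncl, a nucleolar protein, averaged 6284 ± 464 in KO and 6091 ± 313 in WT livers (SD, n = 5 each). Of 76 mitochondrial ribosomal protein genes 0 were called and 42 were negative, with a median of -0.0030, or 0.065 with median scaling. Of 5 tested paralogs that the rule leaves out 0 were called. Rpl22l1, the paralog of Rpl22, averaged 3687 ± 224 in KO and 4091 ± 188 in WT livers (SD, n = 5 each). Its log2 difference was -0.15 ± 0.05 (SE; limma adjusted p = 0.388).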

How the data were processed

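The authors deposited linear intensities, 1 for each liver and each of 45037 probe sets, per the labels' protocols made from 1 µg of total RNA labelled with a one-cycle Affymetrix kit. Some values lie below 0, from which a subtraction of some kind before deposit is inferred. The authors' software and scaling were not stated in the labels. Array medians ran from 19.5 to 25.01 and 20.7% to 22.6% of values were at or below 0. The number of livers limits the precision.

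Intensities were quantile normalized, values at or below 0 were set to the lowest positive value (0.000978), and log2 was taken. Probe sets under the 40th percentile of mean log2 were left out, keeping 27022. Limma 3.58.1 in R 4.3.3 (eBayes with trend, genotype only, two-sided) compared KO with WT at an adjusted p of 0.05. For each gene the probe set of highest mean log2 was taken. The fit was tested on simulated data. Symbols came from the platform annotation: 34945 probe sets had 1, 932 several and 9160 none.

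The members and lists were chosen with earlier results of these data known. Named members are the 6 largest positive and 6 largest negative differences, the 3 brightest and 3 dimmest, Rplp0, Rplp2, Rpsa, Rps19 and Rpl11, and the 4 genes whose bright probe sets differed most. Alternatives covered scaling, floor, filter, variance model, replicate block, array weights and each liver left out. Figures used matplotlib 3.10.9 in Python 3.11.15.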

Additional observations from a re-analysis of the deposited data

Results flagged for a closer look

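By Dixon's ratio, 4 livers lay far from the rest of their genotype in 60 groups of 5 values, and about 1 group in 20, or 3, does so by chance. A dimmer Rpl41 probe set was high in WT replicate 1, at log2 11.3 (2497 units) with the nearest WT liver at 10.6. The brightest Rps9 probe set was low in KO replicate 5, at 12.3 (4941 units), with the nearest KO liver also at 12.3. Zfp36l2 was high in WT replicate 3 (9.22, nearest 8.63) and low in KO replicate 2 (6.36, nearest 6.68). No explanation was tested for these values.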

How the results depend on the processing

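No member probe set was called in any of the 19 settings run, counting the one reported, and the lowest adjusted p of a member was 0.147, with the replicate block. Zfp36l2 was called in each, at log2 differences from -2.11 to -1.92. The median over the member genes was 0.012 with median scaling and -0.072 with deposited values. Both lay further from -0.021 than the SD between quantile normalized livers (0.017). That SD was larger under the other scalings, at 0.043 to 0.071 with median scaling and 0.072 to 0.095 with deposited values. With 1 liver left out the members' median ran from -0.030 to -0.012. It stayed at -0.021 with the mean over a gene's probe sets, without probe sets ending in x_at or s_at, and, chosen after seeing the data, without Rps19bp1. Over all probe sets 11 were called, against 57 with a floor of 16, 51 with 16 added, 30 with no filter, 2 without the trend, 28 with the replicate block, 20 with array weights and 5 to 103 with 1 liver left out: 103 without WT replicate 5, 5 without KO replicate 2 and 7 without KO replicate 4. Named members gave 378 values under these alternatives, of which 364 moved by no more than their residual SD and 0 were called. The 14 that moved by more all came from median scaling or deposited values. The floor of 16, the filter, the variance model and the replicate block leave these log2 differences unchanged by construction. Values under those settings therefore say nothing about how stable the differences are.

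The titles give both genotypes replicate numbers 1 to 5, but say nothing of what a number stands for. Whether same-numbered livers deviate together depended on which probe sets and floor were used. Over all tested probe sets the 5 correlations ran from 0.00097 to 0.031, and the livers were not treated as pairs. In that version 4625 of the 27022 probe sets held a value at the floor. Values at the floor can swamp such correlations, so low ones cannot decide whether the livers were paired. In all 6 versions were computed, after the count with the block had been seen. Of the other 5, the 2 over probe sets with a mean intensity of at least 100 had every correlation over 0.1 (0.204 to 0.439, and 0.116 to 0.314 with a floor of 16). The remaining 3 did not: 0.048 to 0.379 over probe sets with a mean log2 above log2 of 100, 0.070 to 0.335 over those with a floor of 16, and 0.028 to 0.130 over all tested probe sets with a floor of 16. In the version with the highest values 10 of 10 livers correlated best with their own number. Over all tested probe sets with the main floor 7 of 10 did, and in the other versions 7 to 9 of 10 did. This is a hint from the data and not from the design.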
